A study of Mus musculus with 8 samples.

Results

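The serotonin receptor genes Htr1a, Htr1b, Htr1d, Htr1f, Htr2a, Htr2c, Htr3a, Htr4, Htr5a and Htr7 were read by symbol from the count tables, and 10 of 10 were found among 24421 gene rows. They were measured in ribosome-bound RNA of Otp-lineage cells from C57BL/6 mice, in 4 KO and 4 Control libraries. KO mice carried Otp-Cre, 2 floxed copies of Cic (labelled Cicflox/flox) and the ROSAfsTRAP allele. Control mice carried Otp-Cre and ROSAfsTRAP with no floxed Cic, so Cre and the tagged ribosome were present in both groups. Otp-Cre acts in cells that express Otp, a homeobox gene of hypothalamic and medial amygdala neurons, and in their descendants. The TRAP allele then tags their ribosomes for purification from dissected hypothalamus and medial amygdala (translating ribosome affinity purification). Cic encodes Capicua, a DNA-binding repressor and partner of ATXN1. The comparison asks how loss of Cic in these neurons changes gene expression. The labels give neither the age of the mice nor whether a library is 1 mouse or a pool, and p-values therefore measure the spread between libraries.

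Serotonin is released in the forebrain by neurons of the raphe nuclei and acts through receptors on the receiving cells and on serotonin terminals. All but 1 class of these receptors are G protein-coupled. The Htr1 and Htr5 receptors lower cyclic AMP through Gi/o proteins, the Htr2 receptors raise calcium through Gq, and Htr4, Htr6 and Htr7 raise cyclic AMP through Gs. Htr3a instead encodes a subunit of a serotonin-gated cation channel. In the hypothalamus serotonin is known for its part in appetite, stress hormone release and circadian timing.

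Depth ran from 33223878 to 49587839 gene counts in KO and from 38171319 to 57300362 in Control, and KO replicate 4 was the shallowest. Cic was lower in every KO library (34.5 to 59.3 CPM) than in any Control library (72.4 to 103 CPM), and the counts cover the whole gene, including RNA outside the deleted part. Values are CPM, counts relative to the total count of the genes tested and scaled between libraries with edgeR's TMM factors. Otp itself was low, with 2.69 to 8.55 CPM in KO libraries and 2.28 to 5.01 CPM in Control libraries. The 10 Otp-lineage and hypothalamic neuron markers summed to 1367 to 2209 CPM over the KO libraries and 1189 to 1237 CPM over the Control libraries, with no overlap. The largest parts of that sum were Sst (mean 727 CPM in KO and 509 CPM in Control), Avp (329 and 244 CPM) and Oxt (317 and 189 CPM). Taken singly, only Nhlh2 of the 10 markers had no overlap between the groups. All 10 had a positive fold change, against 53.8% of all genes tested. An unadjusted edgeR p below 0.05 was found for 6 of the 10, against 10.6% of all genes, and 0 passed the test across all genes. In bulk RNA, a difference in the number of cells of a type and a difference in RNA per cell cannot be told apart. The 8 astrocyte markers summed to 1233 to 1684 CPM over KO libraries and 1291 to 1686 CPM over Control libraries. All 8 libraries are of ribosome-bound RNA, so enrichment over the whole tissue was not measured. The part of RNA from other cells in the receptor levels was not tested. The 7 serotonin neuron markers summed to 3.57 to 10.6 CPM over KO libraries and 5.79 to 11.6 CPM over Control libraries. Of the 7, 5 averaged below 1 CPM over the 8 libraries, and Gata3 and Lmx1b averaged 3.75 and 1.93 CPM. Of the 6 tested, Fev and Tph2 had a positive fold change and the other 4 a negative one. Their median was -0.30, and 0 passed. En1, whose groups did not overlap, was at 0.308 to 0.763 CPM in KO libraries and 0.821 to 2.82 CPM in Control libraries. Slc6a4, the serotonin transporter gene, was at 0 to 0.0247 CPM in KO libraries and 0 to 0.1198 CPM in Control libraries. Fev, another of the 7, was at 0.0308 to 1.76 CPM in KO libraries and 0.157 to 0.424 CPM in Control libraries. Tph2, the brain enzyme of serotonin synthesis, lay at 0.370 to 1.03 CPM in KO libraries and 0.0235 to 0.403 CPM in Control libraries.

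Htr2c, Htr7 and Htr5a were the most abundant of the 10 receptors, and loss of Cic was accompanied by no change past the threshold in any of them or in the other 7. Levels were compared between genes as CPM per kilobase of exon, from the union of GENCODE M21 exons. On that scale Htr2c averaged 9.68 ± 1.04 in KO and 9.61 ± 1.40 in Control (SD over 4 libraries a group, as for all means here). Htr7 averaged 7.77 ± 0.396 in KO and 9.46 ± 0.205 in Control. Htr5a averaged 6.66 ± 1.31 in KO and 6.67 ± 0.577 in Control. These 3 genes together stood apart from the rest: the lowest of their library values was 5.41, and the highest of any other member was 4.14, for Htr1d in KO replicate 3.

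Htr1a and Htr1d formed a middle pair. Htr1a averaged 3.18 ± 0.645 CPM per kilobase in KO and 3.596 ± 0.444 in Control, and Htr1d 3.52 ± 0.437 in KO and 3.10 ± 0.801 in Control. Their ranges overlapped in both groups, so their order, which differed between KO and Control, was within the spread. Htr2a followed at 1.97 ± 0.406 in KO and 1.91 ± 0.395 in Control, and its Control range overlapped that of Htr1d. Below it Htr1b, Htr4, Htr3a and Htr1f all averaged between 0.550 and 0.802 in KO and between 0.570 and 0.784 in Control, and each overlapped the next gene down in the order of either group.

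At the top of the order, Htr2c and Htr7 did not overlap in KO, at 8.15 to 10.5 CPM per kilobase for Htr2c against 7.19 to 8.08 for Htr7, while Htr7 there overlapped Htr5a at 5.41 to 8.12. In Control Htr2c and Htr7 overlapped, at 8.58 to 11.7 and 9.22 to 9.68. This neighbour relation rests on the length used for Htr2c, which has 7 annotated transcripts. With the longest transcript of 4883 bases in place of the exon union of 9328 bases, Htr2c averaged 18.4 in Control against 10.2 for Htr7.

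**Figure D1:**
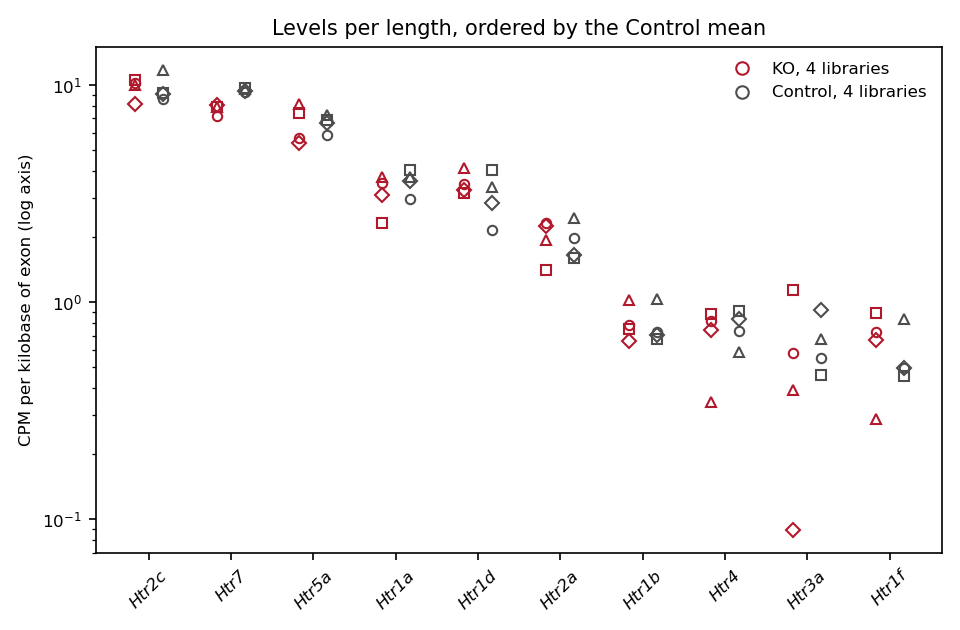
CPM per kilobase of exon (log axis) of the 10 receptor genes, KO (red) left of Control (grey) for each gene, with 1 symbol per library (circle, square, triangle and diamond for replicates 1 to 4), ordered by the Control mean. Htr2c, Htr7 and Htr5a lie at 5.41 or more in every library, and the lowest point is Htr3a in KO replicate 4 at 0.0887.

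The start regions of these 3 most abundant receptors are shown because they lie in contrasting sequence. Each is the 250 bases before the annotated start, from RefSeq on GRCm38.p6, with CG dinucleotides in capitals. They lie at chr19:36057361-36057610 on the minus strand for Htr7, at chrX:146962263-146962512 on the plus strand for Htr2c and at chr5:27841697-27841946 on the plus strand for Htr5a. For Htr7 the GENCODE gene model reaches base 36057507, so part of the stretch before the RefSeq start lies within that model.
Htr7: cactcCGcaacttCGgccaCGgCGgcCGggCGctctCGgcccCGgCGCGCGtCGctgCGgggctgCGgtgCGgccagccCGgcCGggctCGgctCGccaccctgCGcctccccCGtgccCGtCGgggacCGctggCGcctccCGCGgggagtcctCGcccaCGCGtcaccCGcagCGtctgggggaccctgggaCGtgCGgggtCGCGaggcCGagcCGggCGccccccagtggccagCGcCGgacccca
Htr2c: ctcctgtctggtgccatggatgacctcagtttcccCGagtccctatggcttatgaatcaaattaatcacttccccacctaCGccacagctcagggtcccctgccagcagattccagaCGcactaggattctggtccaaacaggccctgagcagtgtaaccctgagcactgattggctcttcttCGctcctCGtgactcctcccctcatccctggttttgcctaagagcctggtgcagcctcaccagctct
Htr5a: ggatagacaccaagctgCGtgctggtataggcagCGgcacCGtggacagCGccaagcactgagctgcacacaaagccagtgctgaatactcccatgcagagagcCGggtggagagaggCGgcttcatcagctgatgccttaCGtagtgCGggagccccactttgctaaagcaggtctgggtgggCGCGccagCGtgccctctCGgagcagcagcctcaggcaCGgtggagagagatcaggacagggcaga
The Htr7 stretch holds 41 CG dinucleotides and is 82.0% G or C, and 98.9% of 32851 RefSeq promoters hold fewer. The Htr2c stretch holds 5 and the Htr5a stretch 13, against a median of 6 over all promoters. Of the other members with an entry, Htr1a, Htr1b, Htr1f and Htr2a hold 4 to 7, and Htr1d, with 2 starts, holds 6 and 20. Htr3a and Htr4 had no entry.

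Capicua is known to bind the octamer TGAATGAA and close variants. The letters TGAATGAA, TGAATGGA, TCAATGAA and TCAATGGA were searched on both strands in windows of 250 bases before to 50 bases after each start. None of the 9 windows of 8 members held one, and 3.84% of all 32851 promoters did. That says only that these letters are not in these windows.

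Htr7 encodes a Gs-coupled receptor of the hypothalamus and thalamus that takes part in circadian timing. The gene lies at chr19:35958734-36057507 on the minus strand of GRCm38 (ENSMUSG00000024798.15) and overlaps no other annotated gene. It was the member whose groups did not overlap. Its 4 KO libraries held 24.4, 26.8, 27.0 and 27.5 CPM, against 31.3, 32.9, 32.5 and 31.9 CPM in the Control libraries, replicates 1 to 4 in order. Every KO library was thus below every Control library, and both groups were tight. The log2 fold change was -0.28 (SE 0.12, 95% interval -0.54 to -0.03), a ratio of 0.821, with an unadjusted p = 0.0302 and an edgeR quasi-likelihood adjusted p = 0.410 over 15438 genes. It did not pass the threshold of adjusted p 0.05, as no member did. Among all genes tested, 5.93% had no overlap between the groups and 10.6% had an unadjusted p below 0.05. Htr7 is 1 of 10 members on either count, and such a share is near that background.

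The coefficient of variation of Htr7 was 5.10% in KO, above the 3.06% that counting alone gives. It was 2.16% in Control, below the 2.64% from counting alone. For Htr2c, with more counts, the coefficient of variation was 10.8% in KO and 14.6% in Control, against 1.66% and 1.58% from counting. The edgeR test does not take the small spread of 1 gene at face value but moves it toward that of genes of like level.

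Several marker sums differed between the libraries beside Htr7, and their part in its difference was not tested. Thalamic neuron markers summed to 840 to 1137 CPM in the KO libraries and 853 to 1228 CPM in the Control libraries. Of these 7 markers 5 had a negative fold change, 3 had an unadjusted edgeR p below 0.05, and 0 passed. The 12 oligodendrocyte markers summed to 1694 to 3103 CPM in the KO libraries and 2646 to 3366 CPM in the Control libraries. All 12 had a negative fold change, 7 had an unadjusted edgeR p below 0.05, and 1, Cldn11, passed, lower in KO. Among all genes tested, 53.8% had a positive fold change, 10.6% had an unadjusted edgeR p below 0.05 and 0.259% passed. None of the markers of either list was at 0 in all libraries.

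**Figure D2:**
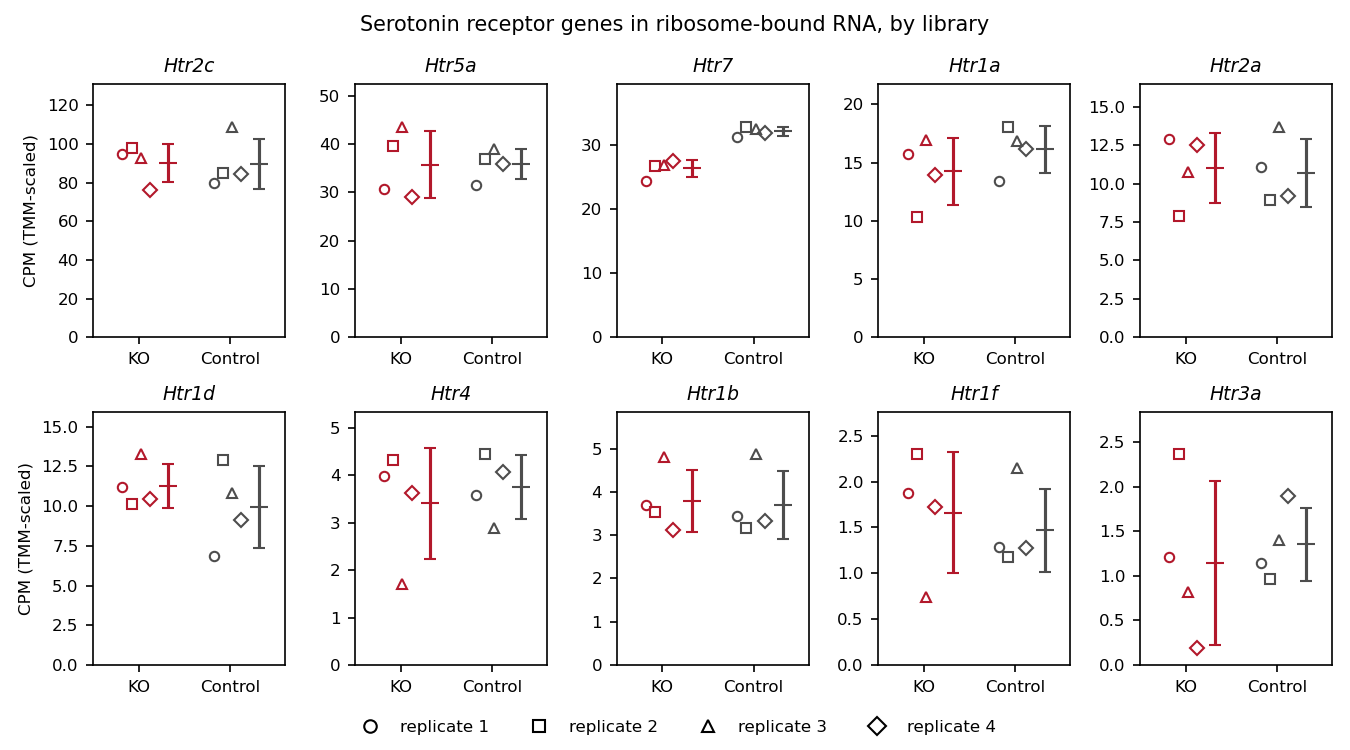
CPM of each receptor gene by library, KO (red) left of Control (grey), 1 symbol per replicate, with mean and SD (n = 4) as bars at the right of each group, each panel on its own axis from 0. Only in the Htr7 panel do the groups not overlap, with KO at 24.4 to 27.5 CPM and Control at 31.3 to 32.9 CPM.

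Htr2c encodes the Gq-coupled receptor through which serotonin restrains feeding, and its pre-mRNA is recoded by A-to-I editing, which gene counts do not show. The gene lies at chrX:146962513-147197277 on the plus strand (ENSMUSG00000041380.13), and 8 small RNA genes, among them Mir448, Mir764 and Snora35, lie within it on the same strand. It held 94.7, 97.7, 92.7 and 76.0 CPM in KO and 80.1, 85.2, 109 and 84.3 CPM in Control, replicates 1 to 4 in order. The groups overlapped throughout, with the lowest value in KO replicate 4 and the highest in Control replicate 3. The log2 fold change was 0.01 (SE 0.13, 95% interval -0.25 to 0.28, edgeR adjusted p = 0.986). That interval spans 0.838 to 1.21 of the Control level.

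Choroid plexus, the secretory tissue of the brain ventricles, is rich in Htr2c. Its 12 markers summed to 49.0 to 215 CPM over KO libraries and 24.5 to 575 CPM over Control libraries, led by Ttr, which reached 519 CPM in Control replicate 4. The part of choroid plexus RNA in the Htr2c level was not tested.

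**Figure D3:**
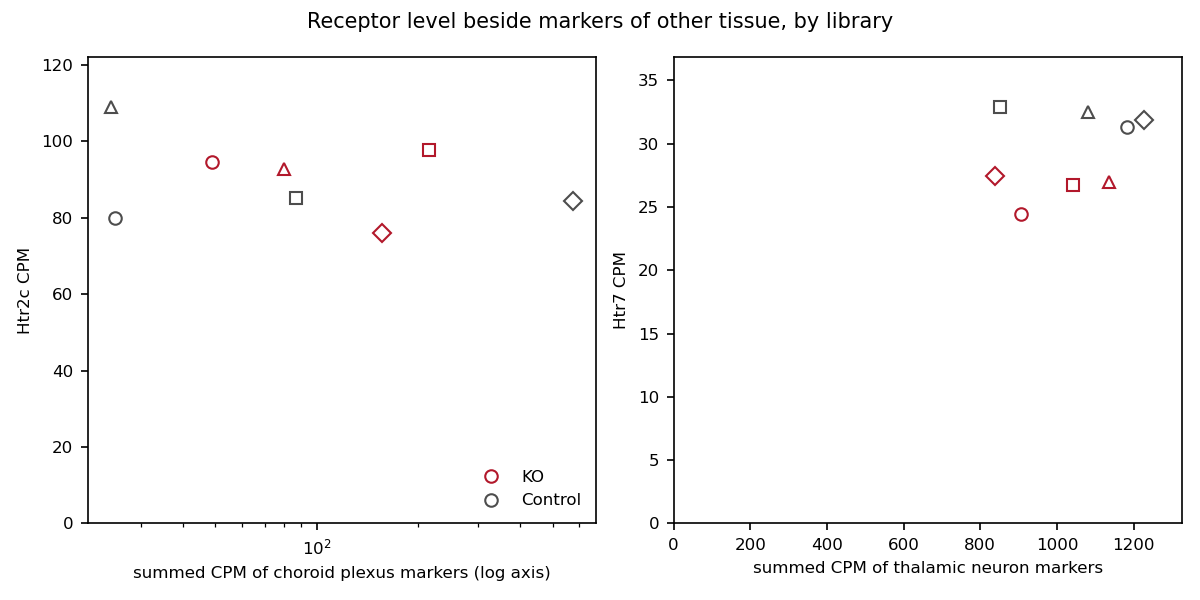
Left, Htr2c CPM against the summed CPM of 12 choroid plexus markers (log axis), and right, Htr7 CPM against the summed CPM of 7 thalamic neuron markers, 1 point per library, KO red and Control grey, with the replicate symbols circle, square, triangle and diamond for 1 to 4. The choroid plexus sum spans 24.5 to 575 CPM and Htr2c 76.0 to 109 CPM, and the KO and Control thalamic sums overlap, whereas the Htr7 levels of the groups do not.

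Htr2a, the other Gq-coupled receptor and the main target of serotonergic hallucinogens, lies at chr14:74640840-74709494 on the plus strand. It held 12.9, 7.90, 10.8 and 12.5 CPM in KO and 11.1, 8.91, 13.7 and 9.18 CPM in Control. Each group covered nearly the range of the other, and the log2 fold change was 0.04 (SE 0.20, 95% interval -0.37 to 0.46, edgeR adjusted p = 0.965).

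Of the Gi/o-coupled receptors, Htr5a was the most abundant. It lies at chr5:27842149-27855088 on the plus strand and held 30.7, 39.7, 43.6 and 29.1 CPM in KO and 31.6, 36.9, 39.0 and 36.0 CPM in Control. The KO libraries spread more widely on both sides of the Control libraries, and the means were 35.8 ± 7.03 CPM in KO and 35.9 ± 3.10 CPM in Control. The log2 fold change was -0.0022 (SE 0.14, 95% interval -0.30 to 0.30, edgeR adjusted p = 0.998). Htr5a is also abundant in cortex and hippocampus, whose 9 pyramidal neuron markers summed to 59.4 to 117 CPM over KO libraries and 85.5 to 198 CPM over Control libraries. Their part in the Htr5a level was not tested.

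Htr1a, the somatodendritic autoreceptor of serotonin neurons and a postsynaptic receptor elsewhere, lies at chr13:105443639-105448122 on the plus strand. It held 15.8, 10.3, 16.9 and 14.0 CPM in KO and 13.4, 18.1, 16.8 and 16.2 CPM in Control. KO replicate 2 was below every Control library and the other KO libraries were not, and the log2 fold change was -0.18 (SE 0.17, 95% interval -0.54 to 0.19, edgeR adjusted p = 0.790). Htr1d, a presynaptic receptor and a target of the triptans, lies at chr4:136423524-136444398 on the plus strand. It held 11.2, 10.2, 13.3 and 10.5 CPM in KO and 6.88, 12.9, 10.8 and 9.13 CPM in Control. Control replicates 1 and 4 lay below all KO libraries, and the other 2 Control libraries lay among them (log2 fold change 0.18, SE 0.20, 95% interval -0.23 to 0.60, edgeR adjusted p = 0.818).

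Htr1b, the terminal autoreceptor, lies at chr9:81628291-81633828 on the minus strand and overlaps D430036J16Rik on the opposite strand, whose reads could not be told from its own if the counting ignored strand. It held 3.71, 3.54, 4.800 and 3.11 CPM in KO and 3.44, 3.18, 4.87 and 3.33 CPM in Control, with replicate 3 the highest of both groups. Htr1f, another presynaptic Gi/o-coupled receptor, lies at chr16:64924729-65105854 on the minus strand and had 30 to 100 counts per KO library and 50 to 81 counts per Control library. Its levels were 1.88, 2.30, 0.742 and 1.73 CPM in KO and 1.28, 1.18, 2.14 and 1.28 CPM in Control. Both genes overlapped between groups, with log2 fold changes of 0.03 for Htr1b (95% interval -0.53 to 0.60, edgeR adjusted p = 0.982) and 0.18 for Htr1f (95% interval -0.73 to 1.09, edgeR adjusted p = 0.929). For Htr1f, a change of 2-fold upward could not be told from none, since its interval reaches a ratio of 2.12.

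Htr4, a Gs-coupled receptor of gut and brain, lies on chromosome 18. Its libraries held 3.999, 4.32, 1.71 and 3.63 CPM in KO and 3.59, 4.45, 2.89 and 4.07 CPM in Control. KO replicate 3, with 69 counts, was the only KO library below the Control range, and the log2 fold change was -0.13 (SE 0.31, 95% interval -0.78 to 0.51, edgeR adjusted p = 0.923). The summed level of the Gs-coupled members, Htr4 and Htr7, was 28.4 to 31.1 CPM in KO libraries and 34.9 to 37.4 CPM in Control libraries, a gap that Htr7 carries. The summed levels of the Gi/o-coupled members (58.4 to 79.4 CPM in KO libraries and 56.6 to 73.6 CPM in Control libraries) and of the Gq-coupled members (88.6 to 108 CPM in KO libraries and 91.1 to 123 CPM in Control libraries) overlapped. These sums were not tested.

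Htr3a, the channel subunit, lies at chr9:48899213-48911099 on the minus strand, overlaps the antisense gene Gm32335 and was the most variable member in KO. It had 59, 103, 33 and 6 counts in KO and 67, 41, 53 and 85 counts in Control. KO replicate 4, with 0.185 CPM (exact Poisson 95% interval 0.0678 to 0.402 for counting error only), and KO replicate 2, with 2.37 CPM (1.93 to 2.87), lay on either side of all Control libraries, at 0.964 to 1.90 CPM, and KO replicate 3, with 0.817 CPM, also lay below them. Its coefficient of variation was 80.1% in KO and 30.1% in Control, against 14.7% and 12.9% from counting alone. In Control that of Htr1f, 30.8%, was slightly higher. The log2 fold change of -0.23 had a 95% interval of -1.42 to 0.96 (edgeR adjusted p = 0.930). Htr3a is a marker of a class of cortical interneurons whose other markers, 8 genes from Vip and Cck to Reln, summed to 246 to 458 CPM over KO libraries and 312 to 550 CPM over Control libraries. Their part in the Htr3a level was not tested.

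**Figure D4:**
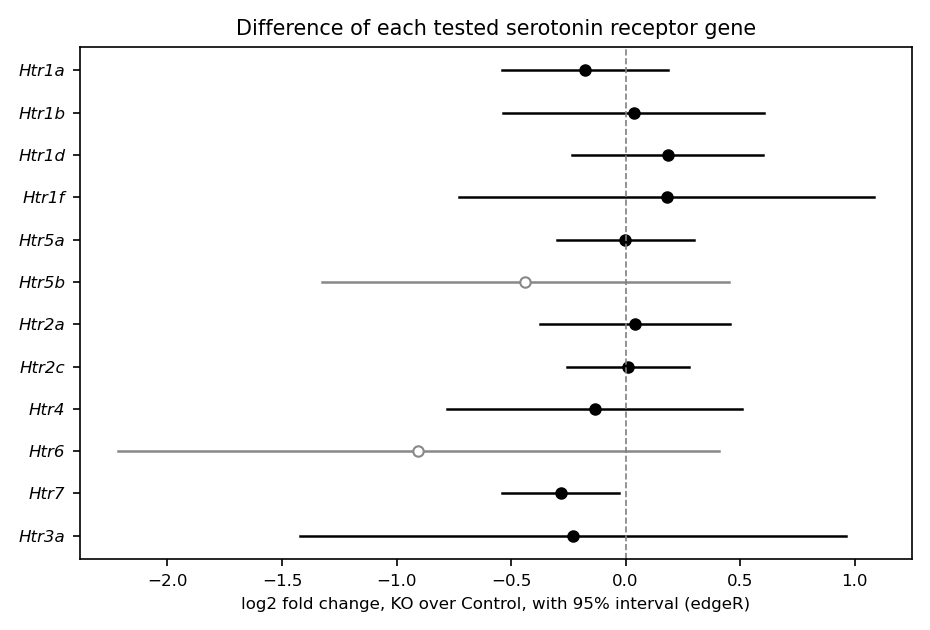
Log2 fold change, KO over Control, with its 95% interval for the 10 members (black) and for Htr5b and Htr6 (grey, open), grouped by coupling class, from the edgeR fit. The intervals of 9 members include 0, that of Htr7 ends at -0.03 before adjustment, and the widest among the members is that of Htr3a.

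Across the family, 5 members were on the positive side and 5 on the negative side, with a median log2 value of 0.0042, against 0.02 over all 15438 genes tested. All 10 passed the filter on low counts, 0 of 10 passed adjusted p 0.05 by edgeR, and 1, Htr7, had an unadjusted p below 0.05. DESeq2 called 0 of the 9 members to which it gave an adjusted p, all but Htr3a. Among all genes tested 0.259% were called, 30 higher and 10 lower in KO, so a count of 0 among 10 genes lies at that background. The half-width of the 95% interval had a median of 0.42 on the log2 scale. No member lies within 10 Mb of Cic, on chromosome 7.

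The highest and lowest values of the family were spread over several libraries. Within KO, replicates 2 and 3 each held the highest value of 4 members, and replicate 4 the lowest of 4. Within Control, replicate 3 held the highest value of 5 members and replicate 1 the lowest of 5. The summed level of the members was 178 to 212 CPM in KO libraries and 184 to 233 CPM in Control libraries.

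Among 13653 other genes of at least 1 CPM, those whose profile over the 8 libraries lay nearest to the 3 most abundant members were found by the root mean square difference of centred log2 CPM. Alcam (0.049) and Clcn3 (0.051) were nearest to Htr2c, whose own profile varied by 0.16. Reep2 (0.061) and Leprotl1 (0.061) were nearest to Htr7, at 0.15, and Fnip2 (0.060) and 9330151L19Rik (0.071) to Htr5a, at 0.19.

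Of the other 4 receptor genes of the family, Htr2b, Htr3b and Htr6 averaged below 1 CPM over the 8 libraries. Htr5b, the second Htr5 receptor of rodents, had 1.40, 1.49, 4.404 and 0.893 CPM in KO and 2.00, 2.49, 3.10 and 3.54 CPM in Control. Per kilobase of exon it averaged 1.06 ± 0.823 in KO and 1.44 ± 0.348 in Control, above the means of Htr1b, Htr4, Htr3a and Htr1f. KO replicate 3 was above all Control libraries and the other 3 were below them, and the log2 fold change was -0.44 (95% interval -1.33 to 0.45, edgeR adjusted p = 0.789). It was -1.13 without KO replicate 3 (unadjusted p = 0.00843, edgeR adjusted p = 0.299) and -0.20 without KO replicate 4 (edgeR adjusted p = 0.875). Htr6, a Gs-coupled receptor best known from striatum, had 0.227 to 0.505 CPM in KO libraries and 0.336 to 1.03 CPM in Control libraries (log2 fold change -0.91, 95% interval -2.22 to 0.41, edgeR adjusted p = 0.672). Htr2b, the Gq-coupled receptor of peripheral tissues, and Htr3b, the second channel subunit, did not pass the filter. On the opposite strand Htr2b overlaps Psmd1 and Htr5b overlaps Gm8217, whose reads could not be told from theirs if the counting ignored strand. Htr2b had 0 to 7 counts in KO and 0 to 12 in Control, and Htr3b had 7 to 47 counts in KO and 0 to 14 in Control. With 3 counts as the limit that a count of 0 allows, the level could be up to 0.0742 CPM in KO replicate 3, where Htr2b was 0. The limit was 0.0706 and 0.0671 CPM in Control replicates 2 and 4, where Htr3b was 0, and Htr2b was also 0 in Control replicate 4.

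Genes that make, move or break down serotonin or carry the receptor signal did not change past the threshold either. Of 94 such genes tested, with Htr5b and Htr6 counted among them, 0 passed by edgeR, 53 were positive and 41 negative, and the median was 0.04. An unadjusted p below 0.05 was found for 12 (12.8%, against 10.6% of all genes), and 8 (8.51%, against 5.93%) had no overlap between the groups.

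Adarb1 had the smallest p of them. It encodes ADAR2, an editing enzyme that acts on Htr2c pre-mRNA, and lies at chr10:77290726-77418270 on the minus strand. Its libraries held 279, 293, 280.0 and 252 CPM in KO and 436, 342, 377 and 401 CPM in Control, so every KO library was lower than every Control library. The log2 fold change was -0.50 (SE 0.11, edgeR adjusted p = 0.0875), which missed the threshold, whereas DESeq2 gave an adjusted p = 0.00145. Over all alternatives the adjusted p ran from 0.00145 to 0.421, and DESeq2 alone was below 0.05. Adar, which encodes the other enzyme that edits Htr2c, averaged 118 ± 17.4 CPM in KO and 102 ± 9.68 CPM in Control, at a log2 fold change of 0.22 (edgeR adjusted p = 0.588). Editing itself was not measured. The 13 receptor partner, editing and chaperone genes had a median of 0.05, and Dlg4, the postsynaptic scaffold PSD-95, was at -0.25.

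Of the 12 tested genes of serotonin synthesis, transport and breakdown, 8 were positive and the median was 0.10. The 3 of smallest p were Slc18a1 (1.27), Tph2 (1.42) and Fev (1.30), with means of at most 1.24 CPM in either group and none past the threshold. Slc18a2, the vesicular monoamine transporter of neurons, averaged 30.3 CPM in KO and 27.5 CPM in Control, and Maoa, which oxidises serotonin, 33.1 CPM in KO and 30.7 CPM in Control. These are shared with dopamine neurons of the hypothalamus.

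Among 12 G protein alpha subunits, 8 were positive, with a median of 0.13. Gnao1, the Go subunit, was at 0.30 and Gna12 at -0.30, both without overlap between groups, and Gnai1 was at 0.17. The 11 beta and gamma subunits had a median of 0.05, with Gng5 at 0.34, Gng3 at 0.30 and Gng2 at 0.18. Of 4 G protein-gated potassium channels, which Gi/o-coupled receptors open, Kcnj9 did not overlap between groups and was the lower in KO (60.5 ± 8.25 CPM in KO and 79.1 ± 4.62 CPM in Control) at a log2 fold change of -0.39 (edgeR adjusted p = 0.225), while Kcnj6 was at 0.35 and Kcnj5 at 0.30. None of these 3 passed.

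Adenylyl cyclases and protein kinase A subunits, 14 genes, had a median of -0.02. Adcy1, a calcium-stimulated cyclase, averaged 109 ± 21.4 CPM in KO and 150 ± 16.0 CPM in Control, with no overlap and a log2 fold change of -0.46 (edgeR adjusted p = 0.208). Adcy9 was at -0.34, also with no overlap, and Adcy6 at -0.31. The 10 genes of the Gq arm had a median of -0.06, with the IP3 receptor gene Itpr1 at -0.36 and the protein kinase C genes Prkca at 0.37 and Prkcb at 0.19. Among 16 receptor kinases, arrestins and RGS proteins, which end receptor signalling, the median was 0.03. Rgs14 was at -0.96 and Grk5 at -0.36, both without overlap, and Rgs17 was at 0.32.

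**Figure D5:**
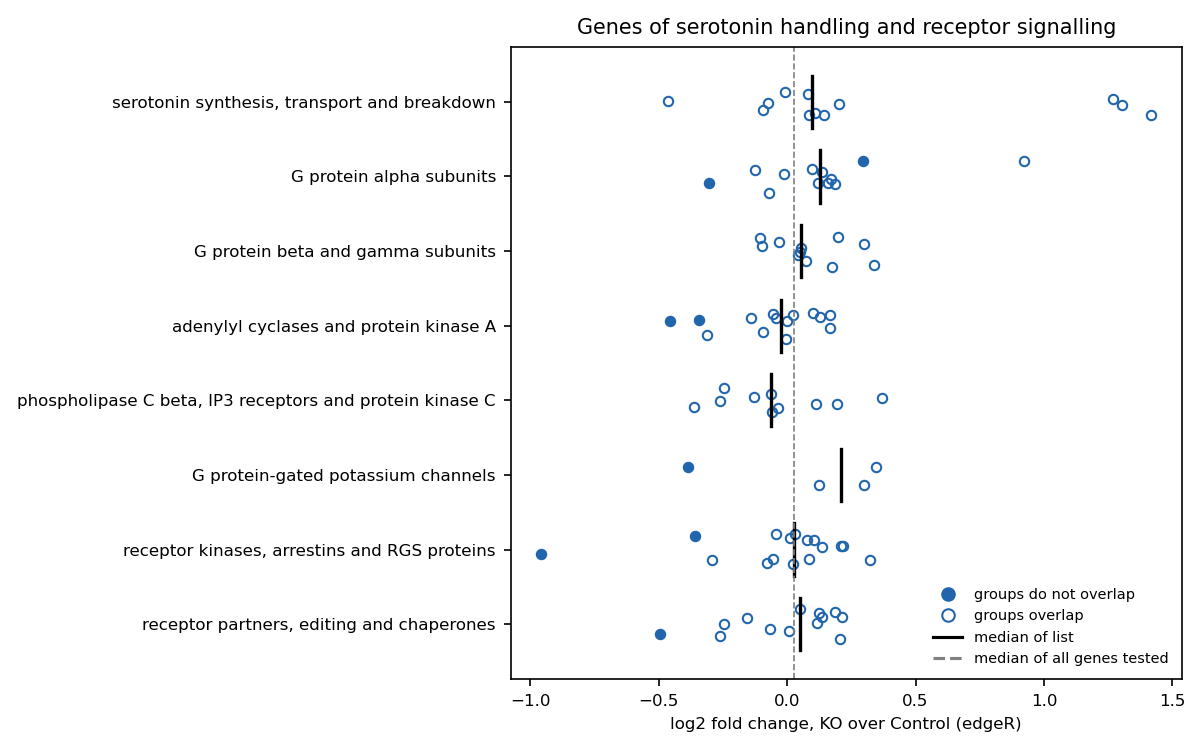
Log2 fold change, KO over Control, of each tested gene by list (filled where KO and Control libraries do not overlap), with the median of each list (black bar) and of all genes tested (dashed line), the vertical position within a list being arbitrary. The medians of the 8 lists drawn, which leave out Htr5b and Htr6, run from -0.06 to 0.21, and Adarb1, at -0.50, is the one filled point among the receptor partners.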

How the data were processed

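The authors deposited 1 table of raw read counts per gene symbol for each of 8 libraries, and the submitters' processing notes name TopHat2 2.0.9, HTSeq, DESeq2 and the build mm10. The annotation, HTSeq version and strand setting of the counting were not stated there. The RNA was amplified from little input with poly(A) and random primers, per the labels' protocols, and carries no molecular identifiers, so intervals from counts cover counting error only. Library sizes and tests leave out 92 spike-in and 5 counter rows. Reads that align to several places took 69.2% to 81.9% of counted records in KO and 63.3% to 74.1% in Control. No 2 libraries repeat each other (chi-square of their counts at least 25.9 per degree of freedom in 28 pairs).

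KO was tested against Control with edgeR 4.0.16 under R 4.3.3, after filterByExpr with a minimum count of 10 and a minimum total of 15 and TMM scaling, by a robust quasi-likelihood fit without covariates and Benjamini-Hochberg adjustment over all genes. The SE is the log2 fold change divided by the square root of F. The script was tested on simulated data, where it called 18 of 50 genes changed 1.5-fold and 39 of 50 changed 2-fold. It also called 42 of 50 changed 4-fold and 8 of 15238 unchanged genes. Gene models, lengths and coordinates are from GENCODE M21 (GRCm38), which may differ from the authors' annotation, and promoters from RefSeq (GRCm38.p6). Members, lists and tests were chosen with earlier results of these data known. Named are all family members, Cic, Otp, up to 3 genes of smallest p per list and the nearest profiles. Ttr, Slc6a4, Cldn11, Slc18a2, Maoa and some markers were named after their values were seen. Alternatives were other scalings, filters, DESeq2 1.42.0, a fit without robust estimation, the replicate number as a block and leaving out each library.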

Additional observations from a re-analysis of the deposited data

Results flagged for a closer look

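Among 4 libraries of a group, 4 values stood apart by the gap to their nearest neighbour relative to the range of the group. Chance flags about 1 in 20 groups, and 32 groups were checked. Htr1b was high in Control replicate 3, at 4.87 CPM, against 3.18 to 3.44 CPM in the other Control libraries. Htr1f was also high in Control replicate 3, at 2.14 CPM, against 1.18 to 1.28 CPM in the others. Htr5b was high in KO replicate 3, at 4.404 CPM, against 0.893 to 1.49 CPM in the other KO libraries. Cic was low in Control replicate 2, at 72.4 CPM, against 101 to 103 CPM in the other Control libraries.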

How the results depend on the processing

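No member passed adjusted p 0.05 under any of 17 alternatives that gave it an adjusted p (DESeq2 gave none for Htr3a), and the lowest adjusted p was 0.224, for Htr7 with DESeq2. Htr7, Htr1a and Htr1d kept their direction throughout, Htr7 between -0.31 and -0.26. The fold change of Htr2c turned to -0.017 with upper-quartile scaling, -0.00072 with total counts only and -0.0016 without the ribosomal RNA row Rn45s, no row of the tables being named as mitochondrial. Leaving out 1 library gave ranges that cross 0 for Htr1b (-0.099 to 0.19), Htr1f (-0.027 to 0.42), Htr2a (-0.052 to 0.18), Htr2c (-0.040 to 0.12), Htr3a (-0.87 to 0.11), Htr4 (-0.28 to 0.088) and Htr5a (-0.11 to 0.077). Of all genes, 40 were called, 26 with total counts only, 200 with DESeq2, and 14 to 53 with 1 library left out. That count was 26 when KO replicate 2 was left out, and leaving out Control replicates 1, 2, 3 and 4 gave 19, 17, 26 and 14 in that order. The cause was not tested. DESeq2 called 1 pathway gene, Adarb1, where edgeR called 0. With the longest transcript as length, 8 of 10 members kept their place in the Control order of levels, and Htr4 and Htr1b changed places. The labels do not say that a shared replicate number marks related mice. Same-numbered libraries deviated together at correlations of -0.048 to 0.10, and 1 of 4 KO libraries correlated best with its own number. With the number as a replicate block, 65 genes were called, among them 0 members, and Htr7 had an unadjusted p = 0.0508. The unadjusted edgeR p of Htr7 was also above 0.05 without KO replicate 1 (0.0539). Without Control replicate 1, 2, 3 or 4 it was 0.0537, 0.0556, 0.0597 and 0.0530 in that order. Depth limits Htr2b and Htr3b, which had 0 counts in some libraries. For Htr1f and Htr3a the intervals reach beyond a 2-fold ratio in 1 direction, with spreads between libraries above those from counting alone.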
